A study of Mus musculus with 6 samples.

Results

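A set of 10 adhesion genes was followed in the mRNA-seq data of double positive (DP) thymocytes, a T cell precursor stage named for its joint display of CD4 and CD8. They are the integrin subunit genes *Itga4*, *Itgal*, *Itgae*, *Itgb1*, *Itgb2* and *Itgb7*, the integrin activators *Tln1* (talin) and *Fermt3* (kindlin-3), *Tns3* (tensin-3) and *Cd44*. These 10 members were found by symbol among 23183 gene symbols. *Tns3* was chosen for its reduction in NSrp70-deficient cells, so its values are given as a description without a test, and the other 9 were chosen as adhesion genes. The study compared sorted DP thymocytes of NSRP1f/f mice (WT), which carry the floxed allele without Cre, and of NSRP1f/fCD4Cre mice (NSrp70-cKO), in which Cre is driven by CD4 regulatory elements. All mice were C57BL/6 at 6 weeks of age, and each genotype had 3 libraries. The labels do not say whether the libraries came from separate mice, so p-values measure the spread between libraries, which may be technical.

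Integrins are surface receptors made of an alpha and a beta chain. In thymocytes and T cells, alphaL pairs with beta2 to bind ICAM proteins, alpha4 pairs with beta1 to bind VCAM1 and fibronectin or with beta7 to bind MAdCAM1, and alphaE pairs with beta7 to bind E-cadherin. Signals inside the cell reach integrins through Rap1 GTPases, and talin and kindlin-3 then bind the beta tail and switch the receptor to its active form. Tensins also bind beta tails and link them to actin, and CD44 is a receptor for hyaluronan that marks activated and memory T cells. The FPKM value of a gene (mapped fragments, scaled by transcript length and by library depth) sums over its isoforms and holds no exon inclusion.

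Mapped depth, estimated from the steps of 1 fragment in the low values, lay between 20.64 and 20.86 M fragments (M, mega) in WT and between 13.24 and 20.88 M in cKO. *Nsrp1*, listed as *Ccdc55*, had an FPKM of 20.2, 20.7 and 21.1 in WT and of 17.7, 15.8 and 15.0 in cKO, a cKO mean 78.2% of the WT mean. Its log2 fold change was -0.34 (standard error 0.077, adjusted p = 0.00675 from limma). The FPKM does not show which exons of *Nsrp1* were read. For the protein, the paper reported a significant reduction of NSrp70 in cKO thymocytes by western blot. Levels were tested with limma on log2(FPKM + 1) over 10326 genes, where 65.5% passed an adjusted p of 0.05, 35.8% higher and 29.8% lower in cKO. Per gene, pairs of WT libraries had a chi-square of 1.51 to 1.67, little above the value of 1 that counting noise gives, against 29.0 to 67.7 for pairs of cKO libraries. The labels do not say that the WT libraries were independent, so each call was repeated with their mean as 1 sample and the spread taken from cKO, where 15.9% of the genes passed and *Nsrp1* did not (adjusted p = 0.184). *Xist* lay between 69.8 and 72.0 in WT and between 4.07 and 5.44 in cKO, and *Ddx3y* of chromosome Y was listed at 0 in WT and lay between 26.2 and 35.0 in cKO. The genotypes therefore cannot be told apart from the sex of the mice, which the labels do not give.

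The chains of the E-cadherin receptor alphaE beta7 were lower in NSrp70-cKO DP thymocytes. *Itgb7*, the beta chain that also serves the gut-homing receptor alpha4 beta7, had an FPKM of 14.5, 16.0 and 16.3 in WT 1, 2 and 3 and of 4.24, 3.29 and 4.45 in cKO 1, 2 and 3. Every cKO library lay below every WT library, and the cKO mean of 3.99 ± 0.615 (SD, n = 3) was 25.6% of the WT mean. In bulk samples, fewer cells of a type and less RNA per cell cannot be told apart. The log2 fold change of *Itgb7* was -1.74 (standard error 0.11, adjusted p = 0.000101 from limma, and 0.0294 with WT counted as 1 sample). *Itgae*, the alphaE chain also called CD103, had an FPKM of 2.05, 2.45 and 2.25 in WT and of 0.413, 0.171 and 0.329 in cKO. These groups did not overlap either, and the cKO mean was 13.5% of the WT mean. At so low a level the added 1 dampens the change, and on the log2(FPKM + 1) scale the log2 fold change of *Itgae* was -1.32 (standard error 0.11). It passed the filter on low values through the WT libraries only, since no cKO library reached an FPKM of 1, and a p-value conditional on that filter is not given. With no filter the adjusted p was 0.000472 from limma. Its cKO values rest on an estimated 13 to 21 fragments against 156 to 185 in WT. *Haspin*, a mitotic kinase gene listed as *Gsg2*, lies on the opposite strand within the span of *Itgae* without sharing exons, and its FPKM was 6.79 to 7.51 in WT and 8.27 to 14.58 in cKO.

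In contrast to *Itgb7*, the other alpha4 partner was higher. *Itgb1*, the beta chain of the receptors for fibronectin and VCAM1, had an FPKM of 61.7, 62.1 and 59.8 in WT and of 83.6, 79.9 and 94.2 in cKO. All 3 cKO libraries lay above all 3 WT libraries, with a cKO mean 140% of the WT mean. Its log2 fold change was 0.48 (standard error 0.080, adjusted p = 0.00184 from limma), but the adjusted p was 0.108 with WT as 1 sample, and after scaling to an equal FPKM sum in all libraries (the same FPKM total) the value was -0.076, against a median of -0.45 over all tested genes. *Itga4*, the alpha4 chain, had an FPKM of 24.0, 23.2 and 23.1 in WT and of 20.9, 18.6 and 18.2 in cKO. The groups of *Itga4* did not overlap, although the gap was narrow. Its log2 fold change was -0.28 (standard error 0.073, adjusted p = 0.0128 from limma), and the adjusted p was 0.256 with WT as 1 sample. The last exons of *Itga4* overlap *Cerkl* on the opposite strand, which had an FPKM of 0.81 to 1.32 in the 6 libraries.

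The chains of the ICAM receptor alphaL beta2 were the most abundant integrin chains. *Itgal* had an FPKM of 131.9, 133.4 and 131.7 in WT and of 100.9, 107.3 and 106.6 in cKO, with no overlap. Its log2 fold change was -0.33 (standard error 0.062, adjusted p = 0.00294 from limma), and the call was lost when WT was 1 sample (adjusted p = 0.204). When GC content and transcript length were corrected for, *Itgal* stood at -0.018 (adjusted p = 0.825) and *Itgb2* at 0.19 (adjusted p = 0.0524). *Itgb2*, the beta chain common to the leukocyte-specific integrins, had an FPKM of 104.1, 104.0 and 101.4 in WT and of 114.4, 99.8 and 113.9 in cKO. WT lay inside the cKO range. The log2 fold change of *Itgb2* was 0.080 (standard error 0.079, adjusted p = 0.401 from limma). It was 0.15 (adjusted p = 0.0127) without cKO 2, but -0.27 under quantile normalization (adjusted p = 0.00447) and -0.48 with the same FPKM total (adjusted p = 0.000577), so no direction held across scalings.

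**Figure D1:**
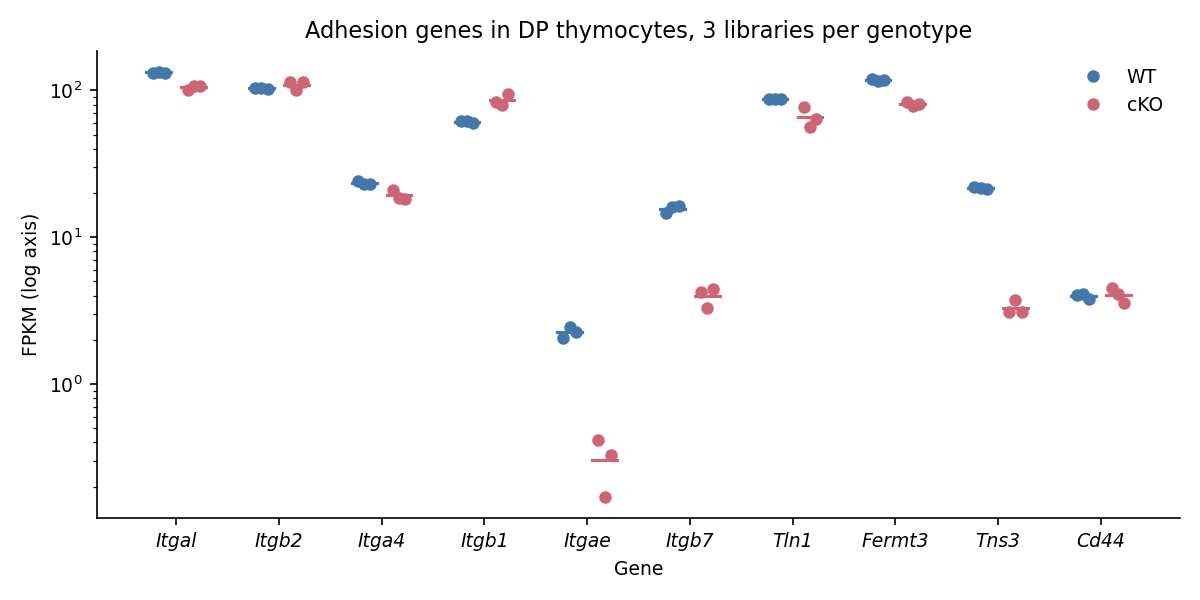
FPKM on a log axis of the 10 adhesion genes in the 3 WT (blue) and 3 cKO (red) libraries, 1 point per library, with a line at each group mean. The cKO points of *Itgae*, *Itgb7* and *Tns3* lie far below the WT points, those of *Itgb1* lie above them at this scaling, and those of *Itgb2* and *Cd44* overlap with WT.

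Ratios of partner genes within a library do not depend on a scaling factor of the library, but they carry no correction for GC content or length. The ratio of *Itga4* to *Itgb7* was 1.66, 1.45 and 1.42 in WT and 4.92, 5.64 and 4.10 in cKO. Conversely, the ratio of *Itga4* to *Itgb1* was 0.388, 0.374 and 0.386 in WT and 0.249, 0.233 and 0.194 in cKO. Relative to alpha4 mRNA, *Itgb7* was thus scarcer and *Itgb1* more abundant in every cKO library. For the chains of alphaL beta2, the ratio of *Itgal* to *Itgb2* was 1.27, 1.28 and 1.30 in WT and 0.882, 1.08 and 0.935 in cKO. *Itgae* to *Itgb7* had a ratio between 0.138 and 0.153 in WT and between 0.0518 and 0.0974 in cKO, which rests on few *Itgae* fragments and was higher in cKO, by 0.42 on the log2 scale, when 1 was added to both FPKM values. In each of these 4 pairs the genotypes did not overlap, and the exact two-sided permutation test gave p = 0.1, the smallest that 3 libraries against 3 allow. Of the FPKM sum of the beta genes *Itgb1*, *Itgb2* and *Itgb7*, *Itgb7* held 8.02% to 9.2% in WT and 1.8% to 2.1% in cKO, and *Itgb1* held 33.7% to 34.2% and 41.3% to 44.3%.

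**Figure D2:**
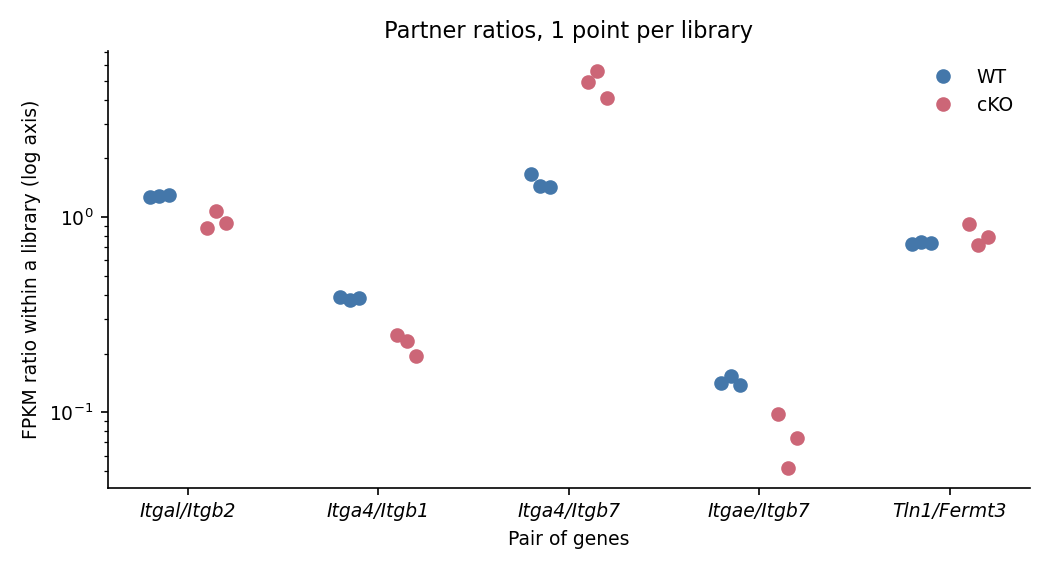
Ratio of the FPKM values of 2 genes within each library, on a log axis, for 4 integrin alpha and beta pairs and for *Tln1* to *Fermt3*, with 1 point per library (WT blue, cKO red). The *Itga4* to *Itgb7* ratio is higher in cKO, the other integrin ratios are lower, and *Tln1* to *Fermt3* overlaps.

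Both activators that bind the beta tail were lower in cKO at the median-of-ratios scaling, and neither call held under every setting. *Fermt3*, which encodes the kindlin of blood cells, had an FPKM of 119.5, 116.7 and 117.7 in WT and of 83.4, 78.5 and 80.6 in cKO. The groups lay apart, and the cKO mean was 68.6% of the WT mean. The log2 fold change was -0.54 (standard error 0.063, adjusted p = 0.000477 from limma), and the adjusted p was 0.0724 with WT as 1 sample and 0.126 after the GC and length correction (log2 fold change -0.11). *Tln1* had an FPKM of 87.5, 86.7 and 86.8 in WT and of 76.8, 56.3 and 63.6 in cKO. WT hardly varied, whereas cKO 1 stood near WT and cKO 2 was lowest. Its log2 fold change was -0.41 (standard error 0.12, adjusted p = 0.0161 from limma). The adjusted p of *Tln1* was 0.204 with WT as 1 sample and between 0.0513 and 0.0558 without WT 1, WT 3 or cKO 3. The GC and length correction turned *Tln1* to 0.29 (adjusted p = 0.0352). The ratio of *Tln1* to *Fermt3* was 0.732 to 0.743 in WT and 0.717 to 0.921 in cKO (exact two-sided permutation p = 0.4). Exons of *Fermt3* and *Tln1* overlap the opposite-strand genes *Trpt1* (FPKM 1.71 to 4.26) and *Creb3* (FPKM 19.49 to 31.1), and the strand setting of the counting is not given in the sources used here.

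*Tns3* had an FPKM of 21.8, 21.5 and 21.4 in WT and of 3.09, 3.73 and 3.07 in cKO. The cKO mean of 3.30 ± 0.380 (SD, n = 3) was 15.3% of the WT mean, and the log2 fold change of -2.40 (standard error 0.078) ranked 11 from the most lowered of the 10326 genes. This is the measure for which the gene was chosen. Its fold change stayed between -2.87 and -2.02 under every scaling and correction. Another tensin gene, *Tns1*, was named after its values were seen. Its FPKM was 5.88, 5.74 and 5.77 in WT and 3.55, 3.87 and 3.56 in cKO. The log2 fold change of *Tns1* was -0.54 (standard error 0.068, adjusted p = 0.000613 from limma). This call did not hold with WT as 1 sample. *Tns2* and *Tns4* were under an FPKM of 1 in every library. The 5 tested genes whose log2 profile over the 6 libraries, centred on the WT mean, lay nearest to *Tns3* by Euclidean distance were *Cd96*, a receptor of T and NK cells (distance 0.368), *Gimap3* (0.372), *S1pr1*, the receptor for thymic egress (0.374), *Lfng*, a glycosyltransferase that modifies Notch (0.408), and *Als2cl* (0.530). As the libraries form 2 groups, this distance mostly compares the size of the genotype difference on the log2(FPKM + 1) scale. The added 1 dampens it at low levels. The WT mean over the cKO mean was 6.54 for *Tns3*. It was 5.38 for *Cd96*, 9.96 for *Gimap3*, 25.1 for *S1pr1*, 15.5 for *Lfng* and 4.78 for *Als2cl*. *S1pr1* and *Lfng* were under an FPKM of 1 in every cKO library and passed the filter through WT alone.

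*Cd44* was low and did not separate the genotypes. Its FPKM was 4.04, 4.12 and 3.79 in WT and 4.53, 4.09 and 3.58 in cKO, so that the cKO range enclosed the WT range. The log2 fold change was 0.019 (standard error 0.092, adjusted p = 0.863 from limma), and it was -0.43 (adjusted p = 0.0151) with the same FPKM total, close to the shift of all genes in that setting.

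Of the 10 genes, 8 had groups that did not overlap, 7 below and 1 above WT, against 72.5% of all tested genes (33.3% below and 39.2% above), and the 7 below WT include *Tns3*, which was chosen for its reduction. Of the other 9, 7 passed at the median-of-ratios scaling and with no filter alike, against 65.5% of all genes. Of these, 6 were lower and 1 higher, against 29.8% and 35.8% of all genes. The genes were chosen with results of these data known, and with the GC content and length correction 3 were lower and 2 higher, against 2792 and 3077 of all genes. With WT as 1 sample *Itgb7* passed, and so did *Itgae*, which entered through WT alone. By level per length, the WT order was *Itgal*, *Fermt3*, *Itgb2*, *Tln1*, *Itgb1*, *Itga4*, *Tns3*, *Itgb7*, *Cd44* and *Itgae*, with no overlap between neighbours. In cKO the order became *Itgb2*, *Itgal*, *Itgb1*, *Fermt3*, *Tln1*, *Itga4*, *Cd44*, *Itgb7*, *Tns3* and *Itgae*. There, *Itgb2* overlapped with *Itgal*, *Itgb1* with *Fermt3*, *Cd44* with *Itgb7* and *Itgb7* with *Tns3*.

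**Figure D3:**
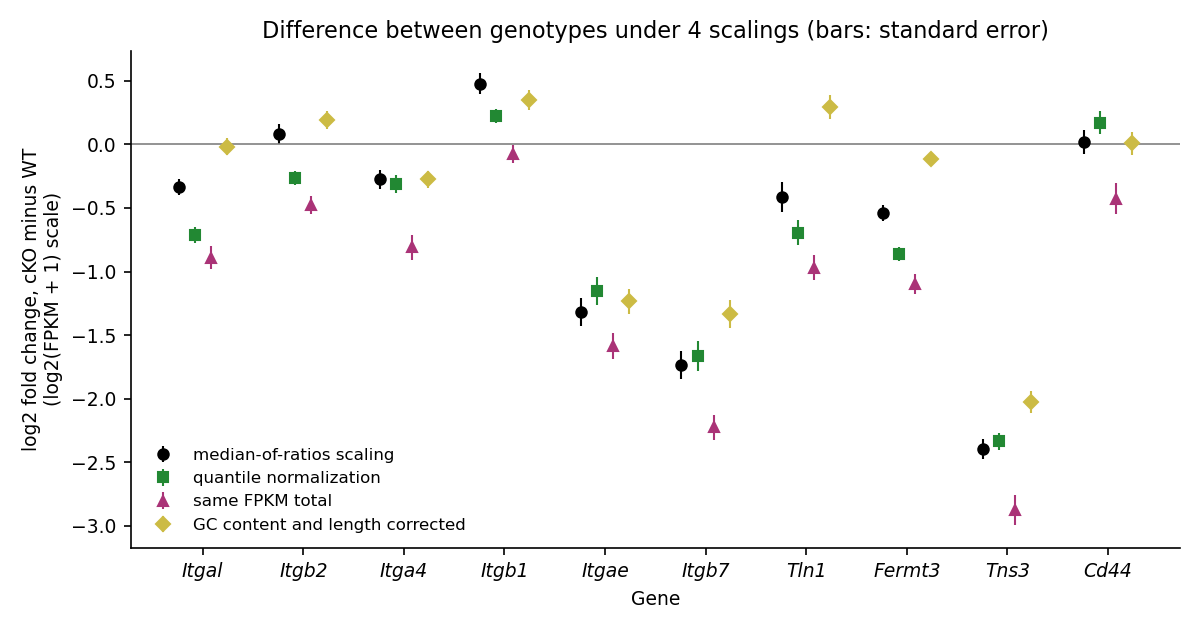
Log2 fold change of the 10 genes (cKO minus WT, log2(FPKM + 1) scale, bars are the standard error) with median-of-ratios scaling, quantile normalization, the same FPKM total, and the GC content and length correction. *Tns3*, *Itgb7*, *Itgae*, *Itga4*, *Fermt3* and *Itgal* are below 0 in all of them, but with the correction *Fermt3* is at -0.11 and *Itgal* at -0.018. *Itgb1* is at -0.076 with the same FPKM total and *Tln1* at 0.29 with the correction.

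The stretch before the transcription start is shown for *Tns3* and *Itgb7*, the members of most negative fold change on the log2(FPKM + 1) scale, and for the gene that was higher at the median-of-ratios scaling, *Itgb1*. *Itgae*, lower in percent of WT than both, has no entry in the promoter table used here. The sequences are from RefSeq (GRCm38.p6), 5′ to 3′ on the strand of the gene, without bases of annotated exons. Capitals mark the SP/KLF core GGGCGG on either strand, the only one of 4 searched motifs found in these stretches. *Tns3* is at chr11:8664536-8664785 (minus strand), *Itgb7* at chr15:102231945-102232185 (minus strand) and *Itgb1* at chr8:128685404-128685653 (plus strand).
Tns3: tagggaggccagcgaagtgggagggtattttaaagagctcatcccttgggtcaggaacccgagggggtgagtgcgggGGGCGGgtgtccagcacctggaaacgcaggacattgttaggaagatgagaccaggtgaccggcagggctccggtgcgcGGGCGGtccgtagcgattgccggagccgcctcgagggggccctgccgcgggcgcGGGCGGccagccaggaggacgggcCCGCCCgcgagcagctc
Itgb7: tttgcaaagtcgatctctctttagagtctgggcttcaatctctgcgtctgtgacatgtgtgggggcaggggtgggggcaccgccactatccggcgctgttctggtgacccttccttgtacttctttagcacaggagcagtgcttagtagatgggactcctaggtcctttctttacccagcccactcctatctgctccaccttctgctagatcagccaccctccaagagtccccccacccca
Itgb1: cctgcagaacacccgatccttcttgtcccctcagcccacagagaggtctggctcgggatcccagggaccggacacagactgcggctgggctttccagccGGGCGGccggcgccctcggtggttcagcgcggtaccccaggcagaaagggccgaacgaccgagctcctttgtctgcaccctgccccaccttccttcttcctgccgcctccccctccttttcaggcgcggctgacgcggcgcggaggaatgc
The *Tns3* stretch held 4 matches in 250 bases at a GC content of 69.6%, *Itgb1* held 1 in 250 bases at 68.0%, and *Itgb7* held 0 in 241 bases at 55.6%. In the 250 bases before the start, 32.7% of 32817 promoters had GGGCGG. The other motifs were the RUNX core TGTGGT (14.0% of promoters), the ETS core CGGAAG (13.6%) and the E protein core CAGCTG (13.0%). Of the 7 members with a promoter in the table, *Itga4* and *Fermt3* held the RUNX core, *Tln1* the ETS core and *Itga4* the E protein core. A match describes letters and does not show binding.

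Around these members, 111 further adhesion genes were grouped by known function, and 67 passed the filter on low values, *Itgb3* and *Tgfb1i1* through WT alone. Of these, 24 rose and 25 fell (35.8% and 29.8% of all tested genes, which is the background of each list that follows), with a median log2 fold change of -0.039 against 0.039 over all tested genes. The split was 15 and 29 under quantile normalization (3435 and 3089 of all genes), 16 and 23 after the GC and length correction (3077 and 2792), 1 and 47 with the same FPKM total (903 and 6182), and 2 and 13 with WT as 1 sample (7.21% and 8.73% of all genes). Among the 20 other integrin subunits, 5 were tested and 2 fell, of which *Itgb3* is given without a p for that reason. *Itgb3*, which pairs with alphaV, had an FPKM of 2.31, 2.28 and 2.12 in WT and of 0.214, 0.322 and 0.272 in cKO. *Itga5*, the classical fibronectin receptor chain, was lower by a log2 difference of -0.86 (limma, adjusted p = 0.000785, and 0.0439 with WT as 1 sample). *Itga6*, a laminin receptor chain and the most abundant of this list, had an FPKM of 17.2 to 18.8 in cKO and of 18.5 to 19.1 in WT (adjusted p = 0.404), and its partner in alpha6 beta1 is the *Itgb1* described above.

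The list of signalling genes that lead to integrin activation, which includes the Rap1 pathway, had 17 of 19 genes tested. Of these, 5 were higher and 8 lower, with a median of -0.064. *Sipa1*, a GTPase-activating protein that turns Rap1 off, fell from 50.4, 50.2 and 51.5 to 24.7, 27.7 and 21.6 (log2 fold change -1.02, adjusted p = 0.000205 from limma). *Apbb1ip*, which encodes RIAM and brings talin to the membrane, fell by 0.91 on the log2 scale (adjusted p = 0.000484), and both genes passed with WT as 1 sample. *Rap1a* rose by 0.49 (adjusted p = 0.00125) and the adaptor *Skap1* by 0.69 (adjusted p = 0.00102), whereas *Rap1b*, the most abundant gene of the list, had an adjusted p of 0.195. The increases of *Rap1a* and *Skap1* did not pass with WT as 1 sample (adjusted p = 0.101 and 0.0728). Of 33 adaptors at the integrin tail, 21 were tested, 7 higher and 8 lower, with a median of -0.20. *Vasp*, an actin regulator, fell from 57.7, 57.6 and 57.7 to 21.9, 26.1 and 25.7 (log2 fold change -1.20, adjusted p = 0.000103), and *Zyx* (zyxin), which binds it, had a log2 fold change of -1.03. *Lpxn* (leupaxin) and *Itgb1bp1*, an inhibitor of beta1 activation, were higher by 0.52 and 0.48, and *Ilk*, the most abundant adaptor gene in WT, by 0.34, none of them with WT as 1 sample.

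**Figure D4:**
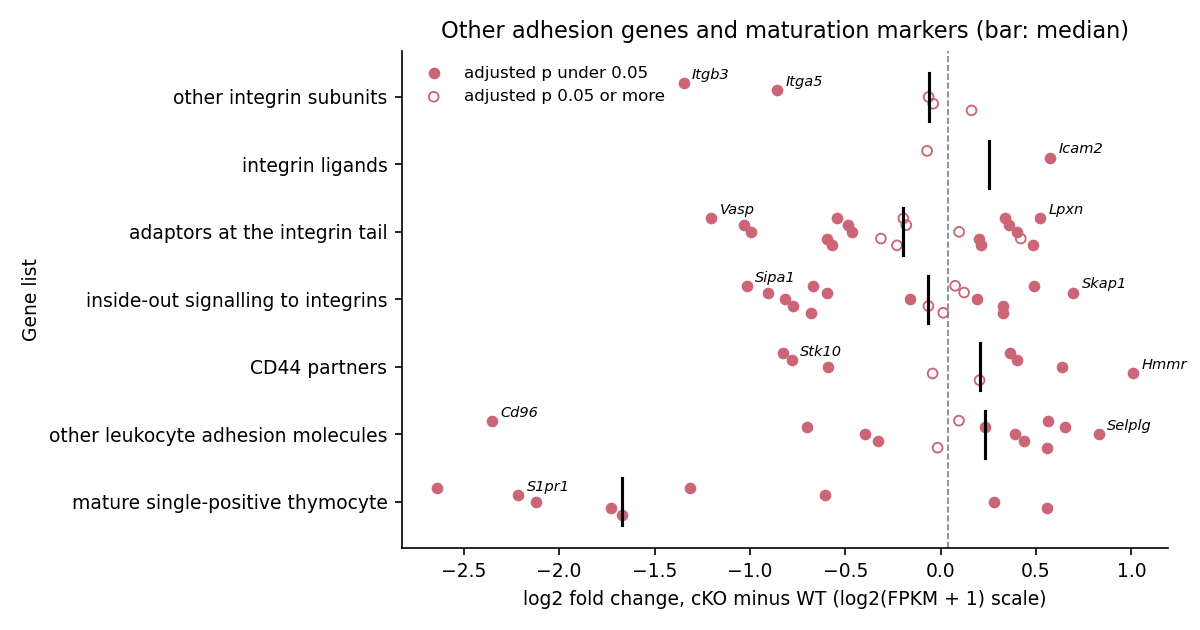
Log2 fold change (cKO minus WT, log2(FPKM + 1) scale) of each tested gene of the wider adhesion lists and of the mature thymocyte markers, with filled points at an adjusted p under 0.05 from limma, a bar at each list median and a dashed line at the median of all tested genes (0.039). *Cd96* and *Itgb3* lie far to the left of their lists, and 7 of 9 mature markers lie to the left of 0.

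CD44 partners comprise the linkers to actin and the hyaluronan system. Of 12 genes, 9 were tested, with 4 higher and 3 lower. *Hmmr*, a hyaluronan receptor that also acts at the mitotic spindle, rose from 15.2, 15.5 and 16.4 to 33.7, 31.8 and 32.5 (log2 fold change 1.01, adjusted p = 0.000101 from limma, and 0.0294 with WT as 1 sample). The linker *Rdx* (radixin) had a log2 fold change of 0.64 and *Ezr* (ezrin), the most abundant of the list, of 0.36, and the linker kinase *Stk10* of -0.78. *Cd74* had one of -0.83 (adjusted p = 0.00849). Among 11 integrin ligands, *Icam2* and *Icam1* alone were tested, and *Icam2* rose by 0.58 on the log2 scale (adjusted p = 0.00424, and 0.113 with WT as 1 sample). Of the 16 other leukocyte adhesion molecules, 13 were tested, 7 higher and 4 lower. *Cd96* fell from 76.0, 74.8 and 78.4 to 13.8, 12.9 and 15.9 (log2 fold change -2.35, adjusted p = 2.06e-05), and *Cd226*, which shares ligands with it, from 4.0, 3.6 and 3.67 to 1.79, 2.28 and 1.75 (log2 fold change -0.70, adjusted p = 0.000832). *Cd48* and *Selplg*, the selectin ligand, were higher by 0.65 and 0.83. *Cd96*, *Cd48* and *Stk10* passed with WT as 1 sample as well, but *Cd226* (adjusted p = 0.0557), *Rdx* (0.0538), *Ezr* (0.326), *Cd74* (0.104) and *Selplg* (0.107) did not.

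Markers of DP thymocytes were present in all libraries, for example *Cd4* at 485.6 to 722.9 and *Rag1* at 964.1 to 1671. Of 9 markers of mature single-positive thymocytes, 7 were lower in cKO, and 6 were lower with WT as 1 sample, counts that include *S1pr1*, which passed the filter through WT alone. *S1pr1* lay between 4.11 and 4.79 in WT and between 0.133 and 0.203 in cKO, *Ccr7* between 15.1 and 16.2 and between 1.16 and 2.50, and *Il7r* between 5.86 and 6.00 and between 1.06 and 1.22, while *Gimap6* was higher. The summed FPKM of the 9 markers, of which *Gimap6* was the largest, lay between 419 and 431 in WT and between 358 and 435 in cKO, and no marker was at 0 in every library. The lowered markers shared their direction with *Itgae*, *Itgb7* and *Tns3*, as did 29.8% of all tested genes. *Gimap6* did not, and the sum overlapped between genotypes. The part of mature cells in the differences was not tested. The 8 macrophage and dendritic cell markers summed to 22 to 24.3 in WT and 17.2 to 18.9 in cKO, with 1 of 5 tested genes (*Cd74*, also among the CD44 partners) lower. *Csf1r*, *Adgre1* and *Itgax* were under 0.17 in every library. The others, *Cd74*, *H2-Ab1*, *Lyz2*, *Cd68* and *Itgam*, were above 1 in every library, *Cd74* at up to 10.8. The 5 erythroid markers summed to 1.96 to 2.72 in WT and 12.3 to 26.6 in cKO, with both tested genes higher.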

How the data were processed

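The values are from the 6 libraries of sorted DP thymocytes. Per the paper's methods, the authors made poly(A)-enriched, strand-specific libraries, aligned trimmed reads to mm10 using Tophat, and deposited the FPKM values that Cufflinks gave, 1 per gene symbol and library. The versions, the annotation and the strand setting are not given in the sources used here. The authors tested counts with DESeq2, which was not repeated on FPKM values.

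Size factors from the median of ratios (1.002 to 1.015) scaled the libraries. Genes that reached an FPKM of 1 in 3 or more libraries were kept, and a genotype term was estimated on log2(FPKM + 1) by limma 3.58.1 under R 4.3.3 (lmFit, then eBayes with trend = TRUE). The p-values were adjusted over all tested genes by the Benjamini-Hochberg method at 0.05. The fit was tested on simulated data. Symbols, lengths and GC content were from GENCODE mouse release 21 on GRCm38, the assembly of mm10, with 22148 symbols matched directly and 665 through RefSeq synonyms. Depth was estimated at 2608 single-transcript genes above 1000 nucleotides, taking fragments as 200 nucleotides long, and fragments per gene used the longest transcript. The GC content and length correction fitted natural splines with 5 degrees of freedom to every library. Partner ratios were compared by an exact permutation test. Tables and plots were made with pandas 2.3.3, numpy 2.4.6, matplotlib 3.10.9 and scipy 1.17.1 in Python 3.11.15.

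The members, lists and tests were chosen with earlier results of these data known. Named besides the members were *Nsrp1*, in each list the 2 genes of largest change in each direction among those past the threshold and the most abundant gene in WT, and the 5 genes nearest to *Tns3*. Other genes that the text names, such as *Tns1*, were chosen after their values were seen. Further lists of double-negative, B cell, epithelial and endothelial or fibroblast markers had 3 of 4, 1 of 1, 0 of 1 and 1 of 1 tested genes called. The 3 double-negative genes were lower, and the B cell gene and the endothelial or fibroblast gene were higher. In the B cell, epithelial and endothelial or fibroblast lists, 4 of 5, 5 of 6 and 6 of 7 genes were under an FPKM of 1 in every library. A gene of the lists is not reported here.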

Additional observations from a re-analysis of the deposited data

How the results depend on the processing

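Of the 9 members with a test, 7 passed. Counting WT as 1 sample left 2 of them (*Itgae*, which entered through WT alone, and *Itgb7*), 15 of 67 wider adhesion genes in place of 49, and 1645 of all genes in place of 6766. With each library left out in turn, 4 to 8 members passed. Over all genes the number ran from 5404 of 10104 tested (without WT 1) to 7637 of 10252 (without cKO 2). The lowest member count also came without WT 1. There, *Itga4* (limma, adjusted p = 0.0602) and *Tln1* (0.0534) missed the threshold. *Itgae*, no longer at an FPKM of 1 in 3 libraries, was not tested there. *Itgae* was also untested without WT 2 or WT 3, and *Itgae* and *Cd44* with a filter at an FPKM of 5. The members split into 1 higher and 7 lower under quantile normalization (3435 and 3089 of all genes), 0 and 8 with the same FPKM total (903 and 6182), and 2 and 3 after the GC content and length correction (3077 and 2792). Directions turned for *Itgb1* (-0.076) and *Cd44* (-0.43) with the same FPKM total, for *Itgb2* with the same total (-0.48) and quantile normalization (-0.27), for *Tln1* with the correction (0.29), and for the *Itgae* to *Itgb7* ratio with 1 added to both values (0.42). Before any scaling, the FPKM total over all genes was 521296 to 531517 in the WT libraries and 701396 to 850548 in the cKO libraries. The same FPKM total removes this difference, so small fold changes depend on the choice of scaling. The cause was not tested. With the replicate number as a block, 7 members and 46 wider adhesion genes passed, against 6467 of the 10326 tested genes. Same-numbered WT and cKO libraries had deviations correlated by -0.0223, 0.0385 and 0.0309 over genes, so the numbers were not taken to pair them. Depth limits *Itgae* most.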

Other observations

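Among the 3 cKO libraries, cKO 1, the one of lowest estimated depth, had the highest FPKM of 6 of the 10 members, and cKO 2 had the lowest of 6. The same counts were not made over all genes, and a link to depth was not tested. The sum of the *Itgal*, *Itga4* and *Itgae* values was 157 to 159 in WT and 122 to 126 in cKO, and the sum of the *Itgb1*, *Itgb2* and *Itgb7* values was 178 to 182 and 183 to 213. These sums were not scaled to the same FPKM total. At that scaling the log2 fold change was -0.076 for *Itgb1*, -0.48 for *Itgb2* and -2.23 for *Itgb7*, so a higher beta sum in cKO depends on the scaling.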
